A study of Mus musculus with 2 samples.

Results

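The genes described here make and harden the proteins of hair and epidermis, and were taken by their symbols as 10 of the 32285 genes in the count matrices: Tchh (trichohyalin), the peptidylarginine deiminases Padi1, Padi2 and Padi3, the transglutaminases Tgm1, Tgm3 and Tgm5, and the S100-related genes Crnn (cornulin), Rptn (repetin) and S100a3. The data were single-cell RNA counts of whole dorsal skin from male C3H/HeN mice in 2 groups. The backs of the mice were shaved, after which the control mice were given vehicle, and the TP mice, a model of androgenetic alopecia (AGA), testosterone propionate (TP) under the skin at 0.5 mg per day. Treatment began at 7 weeks of age and skin was taken at 9 weeks, and the skin of 15 mice was pooled into 1 library per group. Mice that also received a CXCL12-neutralizing antibody were not analysed here. With 1 library per group there is no replicate error and no test between the groups. The intervals given are 95% intervals for counting error only, and a difference between the libraries cannot be told apart from a difference between the 2 pools or their preparation.

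Trichohyalin is a large, arginine-rich protein that fills granules in the inner root sheath, the cell layers that mould the growing hair, and in the medulla at the centre of the hair shaft. Peptidylarginine deiminases convert its arginines to citrulline, which loosens the granules and lets the protein align with keratin filaments. Transglutaminases then join glutamine and lysine side chains of trichohyalin and its partners, so that the dying cell becomes a rigid, insoluble body. The same kinds of enzyme act in the interfollicular epidermis (IFE), where they build the cornified envelope of the skin surface. Crnn, Rptn and Tchh belong to the S100 fused-type family, which also holds filaggrin, and S100a3 is a small calcium-binding protein of the hair cuticle that is known to be citrullinated.

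The members' positions are those of the RefSeq annotation of the mouse build GRCm38.p6. Padi3 (chr4:140785369-140810648, minus strand), Padi1 (chr4:140812981-140845778, minus strand) and Padi2 (chr4:140906336-140952586, plus strand) are neighbours. Crnn (chr3:93144789-93149818), Rptn (chr3:93393699-93399442) and Tchh (chr3:93442330-93449077) share 304.3 kb of the plus strand of chromosome 3 with Flg, Flg2 and Hrnr. S100a3 (chr3:90560356-90602706, plus strand) has an annotated span that covers S100a2, so its counts are uncertain in this respect. Tgm5 (chr2:121046111-121085841, minus strand) and Tgm3 (chr2:129987794-130050399, plus strand) lie apart on chromosome 2, and Tgm1 (chr14:55700009-55713921, minus strand) on chromosome 14.

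The 250 bases before the annotated start are shown for the 3 clustered S100 fused-type members, since these are neighbours on 1 strand whose levels differed between cell classes (RefSeq, GRCm38.p6, plus strand). TATAAA, the TATA box, was searched on the strand of the gene. On both strands the search covered TGANTCA, which is the AP-1 motif, then AGATAA, a motif of GATA factors, then AGAACA, which is 1 arm of the androgen receptor element. The full androgen receptor element, which contains the single arm, was searched too and was in none of the 3 windows. Matches are in capitals.
Crnn, chr3:93144539-93144788: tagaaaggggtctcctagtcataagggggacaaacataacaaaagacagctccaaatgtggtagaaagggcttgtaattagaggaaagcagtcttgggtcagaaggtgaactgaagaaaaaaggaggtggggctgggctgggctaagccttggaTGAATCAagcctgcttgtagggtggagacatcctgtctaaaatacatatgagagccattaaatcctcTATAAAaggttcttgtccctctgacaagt
Rptn, chr3:93393449-93393698: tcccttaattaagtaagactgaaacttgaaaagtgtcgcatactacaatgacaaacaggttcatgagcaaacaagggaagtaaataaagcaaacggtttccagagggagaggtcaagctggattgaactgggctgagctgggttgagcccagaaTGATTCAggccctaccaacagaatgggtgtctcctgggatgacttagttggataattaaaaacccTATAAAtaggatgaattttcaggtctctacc
Tchh, chr3:93442080-93442329: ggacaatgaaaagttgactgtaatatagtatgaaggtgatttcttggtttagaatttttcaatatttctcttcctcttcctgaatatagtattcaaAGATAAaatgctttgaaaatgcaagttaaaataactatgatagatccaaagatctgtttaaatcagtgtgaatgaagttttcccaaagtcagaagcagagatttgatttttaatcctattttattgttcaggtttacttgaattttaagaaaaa
Crnn and Rptn each held TATAAA, 29 and 31 bases before the start, and TGANTCA, 96 bases before the start in both. Tchh held neither and held AGATAA at 154 bases before the start. The RefSeq windows of Tgm3, Tgm1, Padi2 and S100a3 belong to starts inside the gene spans given above. The Tgm3 window (chr2:130012090-130012339) held TATAAA at 28 and AGAACA at 212 bases before that start. S100a3 had 4 windows, of which 1 (chr3:90588313-90588562) held TATAAA at 52 and AGAACA at 115 bases before its start. The windows of Padi1, Padi2, Padi3, Tgm1 and Tgm5 held none of these letters. Of all 32851 RefSeq promoter windows of this length, 7.59% held the TATA box letters, 6.75% the AP-1 letters, 9.99% the GATA letters, 16.1% the single androgen receptor arm and 0.00913% the full element. A match describes letters in the window and was not tested as a binding site.

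The 2 libraries held very different mixtures of cells. After filtering, 39076 control cells with a median of 2045 UMIs (unique molecular identifiers, each 1 counted transcript molecule) and 18542 TP cells with a median of 4773.5 UMIs remained. Clustering gave 29 clusters, and all but 4 were grouped by marker genes into 21 named classes. The members were kept out of the clustering. Classes are called "-like" because they rest on markers alone. Inner root sheath-like cells made up 12.7% of control and 4.07% of TP cells, early hair shaft-like cells 6.04% and 1.18%, and companion layer and medulla-like cells 2.10% and 1.65%. Granular IFE-like cells, by contrast, were 2.88% of control and 9.07% of TP cells. This class scored about alike for granular (2.98) and spinous (3.03) IFE markers, and cells with the lower granular score are called spinous. The name of the companion layer and medulla-like class rests on Krt75 and Foxq1, which were highest there. Its other markers were not. Krt6a was at 2.97 CPM in control and 3.51 CPM in TP. Krt17 was at 631 and 902 CPM, against 3862 and 4889 CPM in upper follicle-like cells. Unnamed clusters held 27.2% of control and 11.7% of TP cells. Levels below are UMIs of a gene per 1000000 UMIs of the cells concerned (CPM), and no levels are compared between genes, because the counts come from the 3′ ends of transcripts.

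Over all kept cells, Tchh and Padi1 were at least 2-fold lower in the TP library and Tgm1, Tgm5 and Rptn at least 2-fold higher. Tchh gave 130001 UMIs (1232 CPM) in control and 57413 UMIs (438 CPM) in TP, a TP to control ratio of 0.355 (interval 0.352 to 0.359). Padi1 was at 3.10 CPM in control and 1.14 CPM in TP (ratio 0.369, 0.302 to 0.449). These were the members at least 2-fold lower in TP, 2 of 10, against 10.4% of the 17565 genes with at least 50 UMIs. Rptn rested on 18 and 105 UMIs (ratio 4.69, 2.83 to 8.23). Tgm5 was at 2.57 and 8.58 CPM (ratio 3.34, 2.92 to 3.83), and Tgm1 at 7.33 and 15.0 CPM (ratio 2.05, 1.89 to 2.23). The members at least 2-fold higher were thus 3 of 10, against 8.36% of all genes, and Rptn reached 50 UMIs only through the TP library in which it was high. The median log2 ratio was -0.20 over the members and -0.23 over all genes. By this measure 1820 genes were lower and 1469 higher, and with TMM scaling, which moved the median to 0.02, 1032 were lower (5.88%) and 2004 higher (11.4%), with the same members in each count.

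The other 5 members stayed within 2-fold over all cells. Padi3 was at 35.3 CPM in control and 21.2 CPM in TP (ratio 0.599), Crnn at 7.87 and 4.06 CPM (0.517), and Tgm3 at 28.8 and 23.1 CPM (0.800). S100a3 was at 197 and 186 CPM (0.946, but 1.12 with TMM scaling), and Padi2 at 0.588 and 0.869 CPM (1.48, 1.08 to 2.05). For this whole-skin value, fewer cells of a type and less RNA per cell cannot be told apart, so each ratio was recomputed with every cluster given its control share of the UMIs in both libraries. Tchh then had a ratio of 0.813, Padi1 0.868, Padi3 1.16, Crnn 1.39 and S100a3 1.72. The S100a3 value includes the hair cortex-like cells, in which 10 TP cells held 95.4% of that class's S100a3 UMIs. With the shares set equal, 0 of 10 members were 2-fold lower, against 3.27% of all genes. Padi2 (2.50), Tgm5 (2.23) and Rptn (2.42) were 2-fold higher, against 3.34% of all genes, and Tgm1 stood at 1.80.

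**Figure D1:**
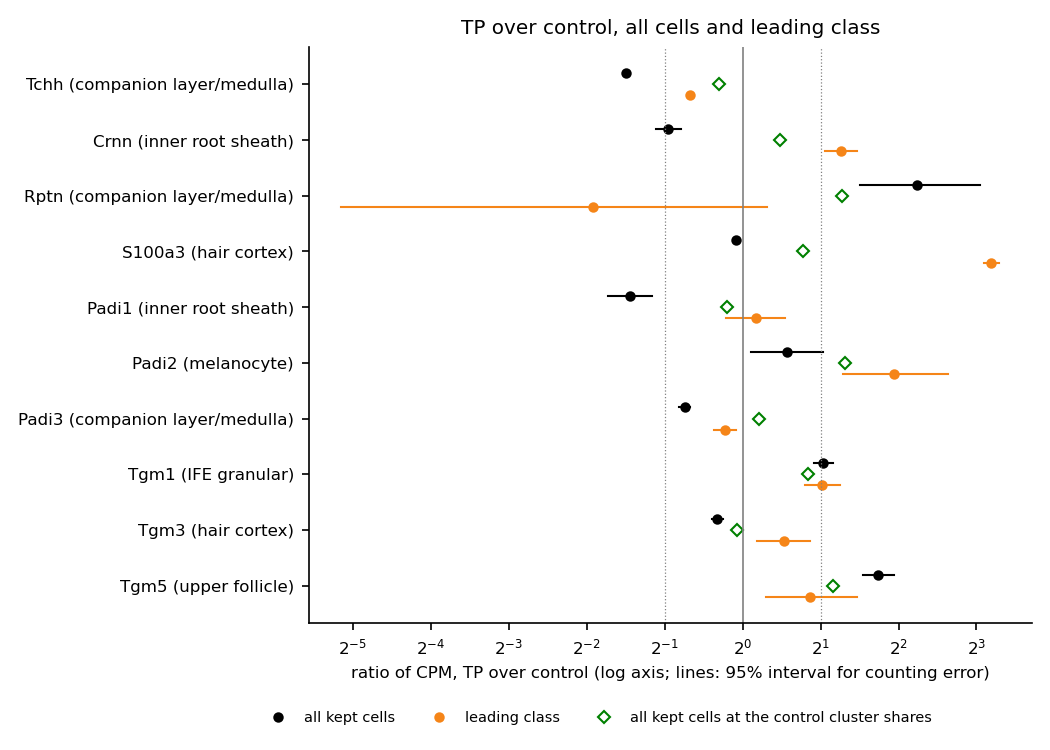
TP to control ratio of CPM for each member (log axis), over all kept cells (black), within the leading class named beside the gene (orange) and over all cells at the control cluster shares (open diamonds), with lines for the 95% interval of counting error and dotted lines at 2-fold. Tchh moves from 0.355 to 0.813 when the shares are set equal, and S100a3 from 0.946 over all cells to 9.12 within hair cortex-like cells. The Tchh values include its background, which was higher in control.

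A background level has to be read beside these levels, most of all for Tchh. In dermal fibroblast (DF), endothelial, lymphocyte and myeloid-like cells, which should lack hair proteins, Tchh was at 705 CPM in control and 119 CPM in TP, a ratio of 0.170. S100a3 was at 101 and 50.8 CPM there, Padi3 at 17.2 and 3.49 CPM, Tgm3 at 17.2 and 3.88 CPM and Crnn at 5.73 and 0.517 CPM. The remaining members were at 5.73 CPM or less in both. Once every cell was thinned to 1000 UMIs, 40.1% of control and 12.5% of TP cells of these classes had a Tchh UMI (618 and 1286 cells, with median depths of 2006 and 4646 UMIs before thinning). Without thinning the shares were 65.1% and 38.6%. Part of these Tchh UMIs lay in few cells. In control, 10 lymphocyte-like cells held 50.4% of that class's Tchh UMIs, up to 70 in a cell. In TP, 10 fibroblast-like cells held 37.6%, up to 171 in a cell. Whether free RNA, doublets or misplaced cells gave this background was not tested. A low level of Tchh, S100a3, Padi3 or Tgm3 in a class outside the hair is therefore read as background. The part of this background in the ratio of a class in which the gene is scarce was not tested. In the leading class of each member, the class with the highest mean level over both libraries, the level of the background classes was subtracted from both libraries. The ratio of Tchh was then 0.671, of Crnn 2.84 and of S100a3 10.8, and the members at least 2-fold higher were the same 4 as without it (Tgm1, Crnn, Padi2 and S100a3).

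**Figure D2:**
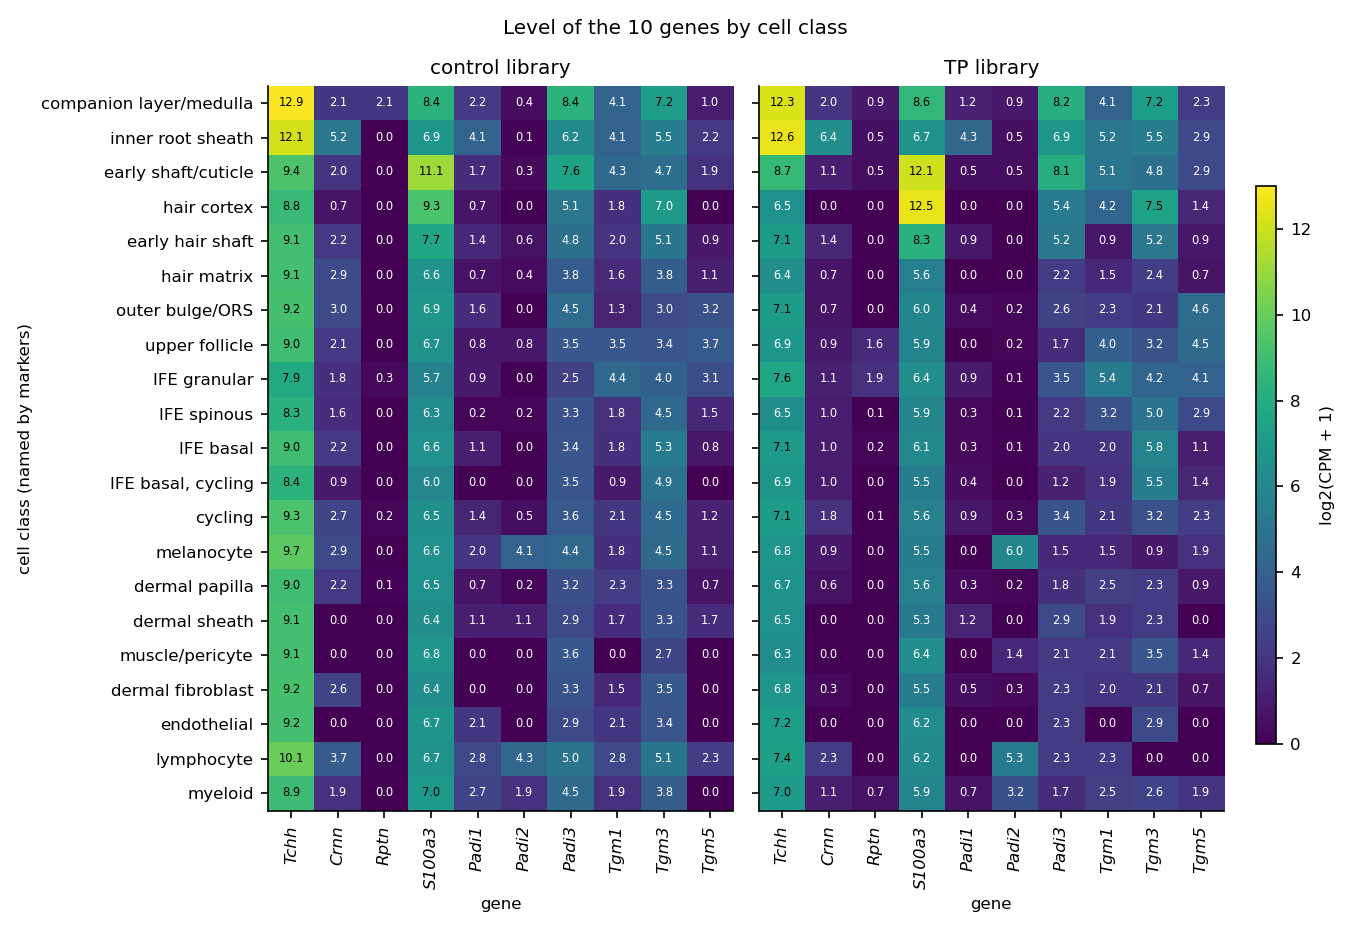
Level of each member, as log2(CPM + 1) printed in each cell and shown by colour, in the 21 named classes of the control (left) and TP (right) libraries. Tchh is highest in companion layer and medulla-like cells in control (7874 CPM) and in inner root sheath-like cells in TP (6078 CPM), and its background is higher in control across the other classes.

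Tchh marked 2 classes far above background, the companion layer and medulla-like and the inner root sheath-like cells, which together held 59.3% of its control UMIs and 66.8% of its TP UMIs. In companion layer and medulla-like cells it was at 7874 CPM in control and 4930 CPM in TP, a log2 ratio of -0.68. In inner root sheath-like cells it was at 4393 CPM in control and 6078 CPM in TP (ratio 1.38, 1.36 to 1.40), so by pooled UMIs the order of the 2 classes was reversed between the libraries by more than the counting error. With every cell weighted equally it was not, at 6502 and 3603 CPM in control and 3740 and 3632 CPM in TP. Early hair shaft-like cells with cuticle markers were at 659 CPM in control, below the background, and at 422 CPM in TP, where 10 cells held 82.1% of the UMIs. Inner root sheath-like cells were the only 1 of the 21 named classes in which the interval of the ratio lay above 1, and in the other 20 it lay below 1.

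The higher TP level of Tchh in inner root sheath-like cells rested in part on few cells. The median cell held 2 Tchh UMIs in control and 1 in TP, and the upper quartile stood at 6 UMIs for control against 12 for TP. These are raw counts, and the median depths of the class were 1968 UMIs in control and 3624.5 in TP. The 10 highest cells held 11.3% of the class's Tchh UMIs in control and 33.2% in TP, up to 1293 and 1340 UMIs in a cell. With every cell weighted equally the ratio was 1.01. Since 10 cells are a larger share of the smaller TP classes, the same share of cells was also left out of both libraries, and the ratio was 1.29 without the highest 2% and 0.965 without the highest 10%. After thinning, 61.9% of control and 43.7% of TP cells of the class had a Tchh UMI. In companion layer and medulla-like cells the share was 71.8% in control and 41.2% in TP, the median cell held 5 and 1 UMIs, and the ratio was 0.575 with cells weighted equally. It was 0.575 without the highest 2% of cells of each library and 0.414, past 2-fold, without the highest 10%. Without thinning, 78.1% of control and 63.1% of TP cells like the inner root sheath were positive, and 86.8% and 67.3% of companion layer and medulla-like cells. No order is read from the inner root sheath shares, since they go against the CPM. The background, which was also higher in control, was not tested for its part in them.

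**Figure D3:**
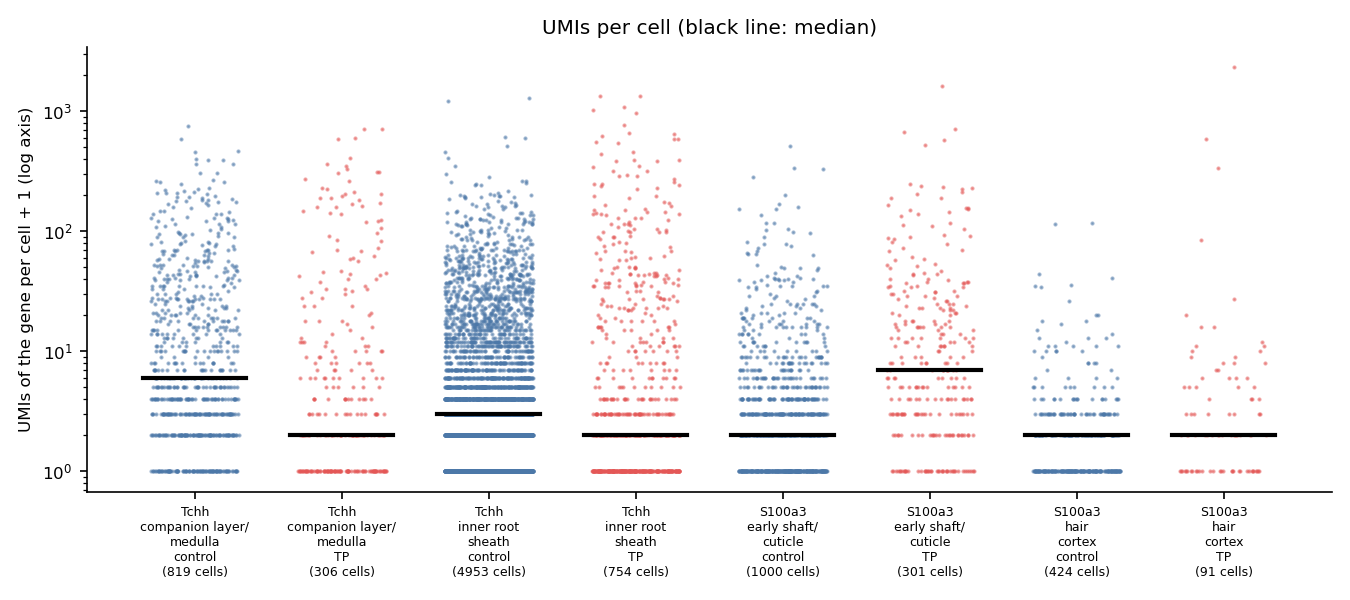
UMIs per cell plus 1 (log axis) of Tchh in companion layer and medulla-like and inner root sheath-like cells and of S100a3 in early hair shaft-like cells with cuticle markers and hair cortex-like cells, 1 point per cell, control in blue and TP in red, with a black line at the median. A few cells stand far above the median, up to 1293 Tchh UMIs in control and 1340 in TP in inner root sheath-like cells, and up to 116 and 2325 S100a3 UMIs in hair cortex-like cells.

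Inner root sheath-like cells formed 2 clusters, and the members were not spread evenly over them. The larger cluster held 3124 control and 483 TP cells, and the smaller 1829 and 271. In the larger cluster Tchh was at 5317 CPM in control and 4669 CPM in TP, while in the smaller it was at 3019 and 7824 CPM (ratio 2.59, 2.53 to 2.65). The 10 highest TP cells of the smaller cluster held 8281 Tchh UMIs and were themselves deep, with a median total of 39183 UMIs, and without the 10 highest cells of each library, a larger share of the TP cells, the ratio was 1.69. The same TP cells carried the sheath keratin Krt71 at 21272 CPM, against 9039 CPM in the other 261, and the 10 highest control cells at 19859 CPM, against 7502 CPM in the other 1819.

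Crnn was concentrated in the smaller cluster. Cornulin, a protein of the cornified cell known from stratified epithelia, was at 9.53 CPM in control and 17.8 CPM in TP in the larger cluster and at 73.3 and 166 CPM in the smaller (ratio 2.27, 1.95 to 2.64). Its level thus differed between the clusters in the same direction in both libraries, well beyond the counting intervals. Padi3 had the opposite order in TP, at 142 CPM in the larger and 86.3 CPM in the smaller cluster, against 74.8 and 70.6 CPM in control. Padi1 was at 15.7 and 15.4 CPM in the larger and 18.1 and 23.1 CPM in the smaller cluster. Tgm1, a transglutaminase described further on, was at 11.5 and 28.3 CPM in the larger and 24.0 and 43.6 CPM in the smaller cluster.

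**Figure D4:**
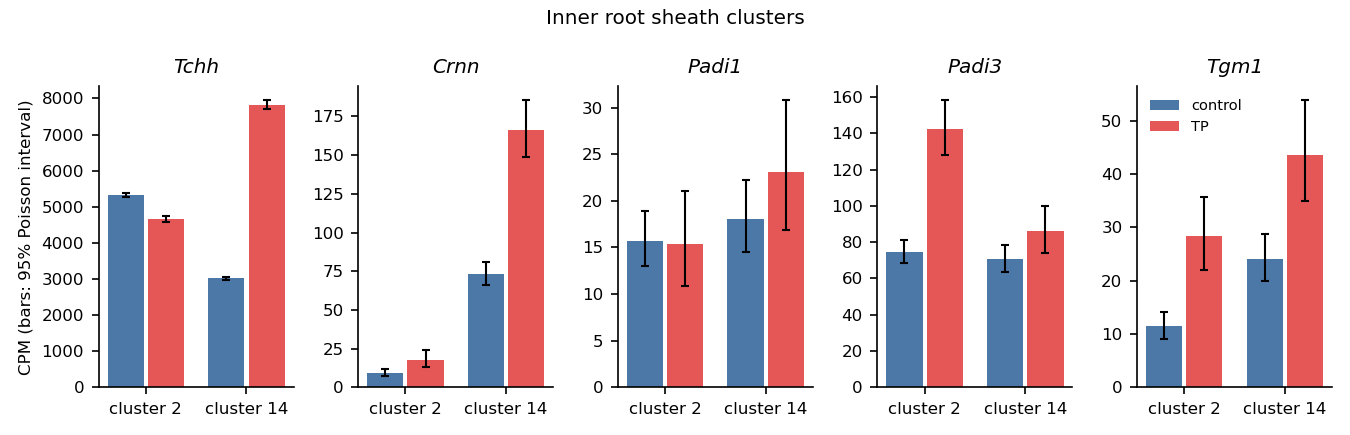
Levels (CPM) of Tchh, Crnn, Padi1, Padi3 and Tgm1 in the larger (cluster 2) and smaller (cluster 14) inner root sheath-like cluster, control in blue and TP in red, with 95% Poisson intervals for counting error. Crnn stands higher in the smaller cluster in both libraries (73.3 against 9.53 CPM in control and 166 against 17.8 CPM in TP), and Tchh is highest in the smaller cluster in TP (7824 CPM).

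Over the whole inner root sheath-like class, Crnn was at 35.2 CPM in control and 84.2 CPM in TP (ratio 2.39, 2.08 to 2.76), and this class held 51.3% of its control UMIs and 70.5% of its TP UMIs. It was 2-fold higher there, as 6.59% of the genes of the class were 2-fold higher or lower. The 10 highest cells held 15.0% of the class's Crnn UMIs in control and 42.3% in TP. Without those cells, a larger share of the TP cells, the levels were 30.1 and 52.5 CPM. Without the highest 2% of cells of each library the ratio was 2.58, but few cells held Crnn, and a larger part of them was left out in control. The ratio was 1.52 with every cell weighted equally and 1.90 with coarser clusters, and so under 2-fold in both. The share of thinned cells with a Crnn UMI was 2.92% in control and 3.27% in TP, against 0 of 618 (which allows a share of up to 0.485%) in control and 0.156% in TP in the background classes. Without thinning, 5.53% and 11.4% of inner root sheath-like cells had a Crnn UMI.

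Rptn, a scaffold protein of cornifying epithelia, was found mostly in the granular IFE-like cells of the TP library. Of its 105 TP UMIs, 78 came from these cells, which gave 2 UMIs in control, or 0.203 and 2.65 CPM (ratio 13.1, 3.49 to 110). Of the 78 TP UMIs, 65 came from 10 cells, with up to 24 in a cell, 1.37% of the TP cells were positive, and the 2 control UMIs came from 1 cell. In upper follicle-like cells, which also carried sebaceous gland markers, it gave 0 UMIs in control and 16 in TP. With the control count set to a floor of 3 UMIs the ratio was 1.77, which is not a lower limit for counting error. Its highest mean level was in companion layer and medulla-like cells, with only 10 control and 2 TP UMIs, too few for a direction (ratio 0.266, 0.0283 to 1.25). Background classes held Rptn at 0 and 0.129 CPM.

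In both libraries S100a3 stood highest in early hair shaft-like cells with cuticle markers and in hair cortex-like cells. The cuticle part of the first name rests on Krt32 (35.9 CPM in control and 104 CPM in TP) and Krt82 (48.7 and 57.0 CPM). In TP both were higher in hair cortex-like cells (147 and 74.5 CPM). Krt39, at 9.51 and 5.25 CPM, was below the hair cortex-like cells (19.3 and 25.9 CPM) in both libraries, and Krt40 was at 0 CPM. In early hair shaft-like cells with cuticle markers it was at 2189 CPM in control and 4244 CPM in TP (ratio 1.94, 1.88 to 2.00). The median cell of this class held 1 UMI in control and 6 in TP, where the median depths were 2739.5 and 5808 UMIs. The ratio was 2.03 with cells weighted equally and 2.06 without the highest 2% of cells of each library. After thinning, 47.1% of control and 61.0% of TP cells had an S100a3 UMI, against 11.3% and 5.91% of cells in the background classes. Without thinning the shares in the hair class were 68.6% and 85.4%. The level was 338 and 391 CPM in companion layer and medulla-like cells and 207 and 312 CPM in early hair shaft-like cells without cuticle markers. In the latter, 10 TP cells held 53.0% of the S100a3 UMIs. The ratio there was 1.36 without the highest 2% of cells of each library and 2.80 with cells weighted equally. It was 0.991 without the 10 highest cells, a larger share of the TP cells. S100a3 was at 116 and 101 CPM in inner root sheath-like cells, and the other 16 named classes apart from hair cortex lay between 50.6 and 130 CPM in control and between 37.2 and 81.7 CPM in TP, around the background levels of 101 and 50.8 CPM.

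The largest ratio of any member within its leading class was that of S100a3 in hair cortex-like cells, and it rested on a handful of TP cells. These cells scored highest for hair cortex markers and also carried early hair shaft and hair cuticle markers. They were the leading class through the TP level, since in control S100a3 was higher in early hair shaft-like cells with cuticle markers (2189 CPM). The class was at 636 CPM in control (424 cells) and 5805 CPM in TP (91 cells), a ratio of 9.12 (8.52 to 9.78), where 5.75% of genes differed 2-fold or more. The 10 highest TP cells held 3421 of the 3585 UMIs, and the 10 highest control cells 478 of 1057. The median cell held 1 UMI in both libraries. Without the highest 2% of cells of each library the ratio was 3.03, and without the highest 10% it was 1.57, short of 2-fold. The same 10 TP cells carried the cuticle keratins Krt32 at 733 CPM and Krt82 at 379 CPM, against 4.03 and 0 CPM in the other 81, and the 10 control cells carried them at 54.0 and 75.7 CPM against 8.29 and 7.01 CPM in the rest. The cortex keratin Krt31 also stood higher in these cells, at 8536 CPM in TP against 1900 CPM in the rest and at 7879 against 1285 CPM in control. The early hair shaft keratin Krt35 stood lower in them. It was at 1656 against 4681 CPM in TP and at 2000 against 3319 CPM in control. The cells highest for S100a3 thus stood higher for these cuticle and cortex keratins and lower for Krt35. In TP, 1 cell held 2325 of the 3421 UMIs, and the part of these keratins in the ratio was not tested.

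Padi3, the deiminase known to act on trichohyalin and S100A3 in the follicle, had its highest levels in 3 hair classes. In companion layer and medulla-like cells it was at 341 CPM in control and 292 CPM in TP (ratio 0.857, 0.776 to 0.946), with 27.0% and 24.7% of thinned cells positive. In early hair shaft-like cells with cuticle markers it was at 188 and 277 CPM (ratio 1.48, 1.33 to 1.64), and at 73.2 and 117 CPM in inner root sheath-like cells (1.60, 1.44 to 1.79). Hair cortex-like cells were at 34.3 and 40.5 CPM, against a background of 17.2 and 3.49 CPM. The order of the 3 highest classes was the same in both libraries, although the first and second lay close together in TP (their intervals, 270 to 315 and 257 to 297 CPM, overlapped). The share of thinned inner root sheath-like cells with a Padi3 UMI was 6.22% in control and 10.2% in TP, while the background classes had 1.29% and 0.311%. Without thinning, 53.6% and 61.1% of companion layer and medulla-like cells and 13.4% and 34.7% of inner root sheath-like cells had one.

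Padi1, which is known from both epidermis and follicle, had its leading class in the inner root sheath-like cells, which held 61.8% of its control UMIs and 56.0% of its TP UMIs. In these cells it stood at 16.7 CPM (control) and 18.8 CPM (TP) (ratio 1.13, 0.86 to 1.46, or 0.956 with cells weighted equally). Thinned cells were positive in 1.54% and 1.63% of cases, against 0.485% in the control background classes and, in TP, 0 of 1286 cells (an upper limit of 0.233%). Without thinning, 3.51% and 7.96% of inner root sheath-like cells were positive.

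Padi2, a deiminase known from many tissues, had no hair class as its leading class. By the mean of both libraries it was highest in melanocyte-like cells that also carried Schwann markers. In control, lymphocyte-like cells were higher (18.3 CPM), but all background classes together held only 10 control UMIs of Padi2, too few to read an order. The melanocyte-like cells held it at 16.1 CPM in control and 61.7 CPM in TP (ratio 3.84, 2.43 to 6.24). These levels rested on 27 control and 70 TP UMIs, so the minimum UMI count was reached only through the TP library. In this class 20.6% of genes differed 2-fold or more. The ratio was 2.67 with cells weighted equally, and 1.35% of control and 5.03% of TP cells were positive after thinning and 4.12% and 20.7% before it. Lymphocyte-like cells, 1 of the background classes, were themselves positive in 3.21% and 3.30% of cells, so that the background classes are no blank for this gene.

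Tgm1, the membrane-bound transglutaminase of the cornified envelope, had the granular IFE-like cells as its leading class. There it was at 19.7 CPM in control and 40.1 CPM in TP (ratio 2.03, 1.74 to 2.38, log2 ratio with 1 UMI added 1.02), and thinned cells were positive in 1.33% and 4.82% of cases, against 14.1% and 41.7% of cells before thinning and 0.162% and 0.622% of thinned cells in the background classes. In this class 14.4% of genes differed 2-fold or more. Granular IFE-like cells held 25.1% of the Tgm1 UMIs in control and 59.7% in TP. Tgm1 was also higher in TP in spinous IFE-like cells, at 2.58 and 8.31 CPM (ratio 3.22, 1.92 to 5.78), and in cells like the inner root sheath, at 16.5 and 35.2 CPM (2.13, 1.72 to 2.64). The spinous cells gave 16 control and 159 TP UMIs of Tgm1, and so reached the minimum UMI count only through the TP library. In companion layer and medulla-like cells Tgm1 was at 16.5 and 16.7 CPM. The 4 control levels of 19.7 CPM (granular), 19.3 CPM (early hair shaft with cuticle markers), 16.5 CPM and 16.5 CPM did not differ beyond their counting intervals. The granular ratio was 1.24 with finer clusters, 1.50 with doublets kept, 1.61 with coarser clusters and 1.90 with the libraries merged without integration, below 2-fold in each.

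Tgm3, a soluble enzyme that is activated by proteolysis and acts in hair and epidermis, was highest in hair cortex-like and companion layer and medulla-like cells in both libraries. In hair cortex-like cells it was at 125 CPM in control and 180 CPM in TP (ratio 1.44, 1.14 to 1.83), and in companion layer and medulla-like cells at 151 and 149 CPM (0.989, 0.857 to 1.14). The intervals of the 2 classes overlapped in both libraries. In hair cortex-like cells the 10 highest cells held 46 of 207 Tgm3 UMIs in control and 56 of 111 in TP. The ratio there was 1.16 without them, a larger share of the TP cells. It was 1.47 and 1.90 without the highest 2% and 10% of cells of each library, and 1.71 with cells weighted equally. The inner root sheath-like class held Tgm3 at 44.7 and 45.0 CPM. Outside the follicle it was also present in basal IFE-like cells, at 38.7 CPM in control and 54.9 CPM in TP (1.42, 1.22 to 1.65), where 3.40% and 4.90% of thinned cells were positive against 1.62% and 0.467% in the background classes. Before thinning, 7.79% and 17.1% of the basal cells were positive. Basal IFE-like cells held 8.05% of the Tgm3 UMIs in control and 21.3% in TP.

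Tgm5, an enzyme of late epidermal differentiation, was higher in TP in follicle and IFE classes. In upper follicle-like cells it was at 11.8 CPM in control and 21.5 CPM in TP (ratio 1.81, 1.23 to 2.75), short of 2-fold. In this class 4.82% of genes differed 2-fold or more. The ratio was 2.17 with cells weighted equally and 4.28 without the highest 2% of cells of each library. Only 2.79% of control and 9.31% of TP cells held a Tgm5 UMI, so leaving out 2% removed most of the positive control cells. Nothing is therefore read from the value of 4.28. In outer bulge-like cells Tgm5 was at 8.40 and 22.7 CPM (2.70, 1.50 to 5.35), in granular IFE-like cells at 7.62 and 16.2 CPM (2.12, 1.66 to 2.75) and in spinous IFE-like cells at 1.77 and 6.64 CPM (3.75). Tgm5 gave 31 control and 170 TP UMIs in upper follicle-like cells and 12 and 149 in outer bulge-like cells. It gave 11 and 127 UMIs in spinous IFE-like cells. Each of these classes reached the minimum UMI count only through the TP library, in which Tgm5 was high. Granular IFE-like cells, with 75 and 476 UMIs, reached it in control alone. The granular cells held 27.7% of the control and 42.3% of the TP UMIs of Tgm5. Background classes held it at 1.15 and 1.03 CPM.

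**Figure D5:**
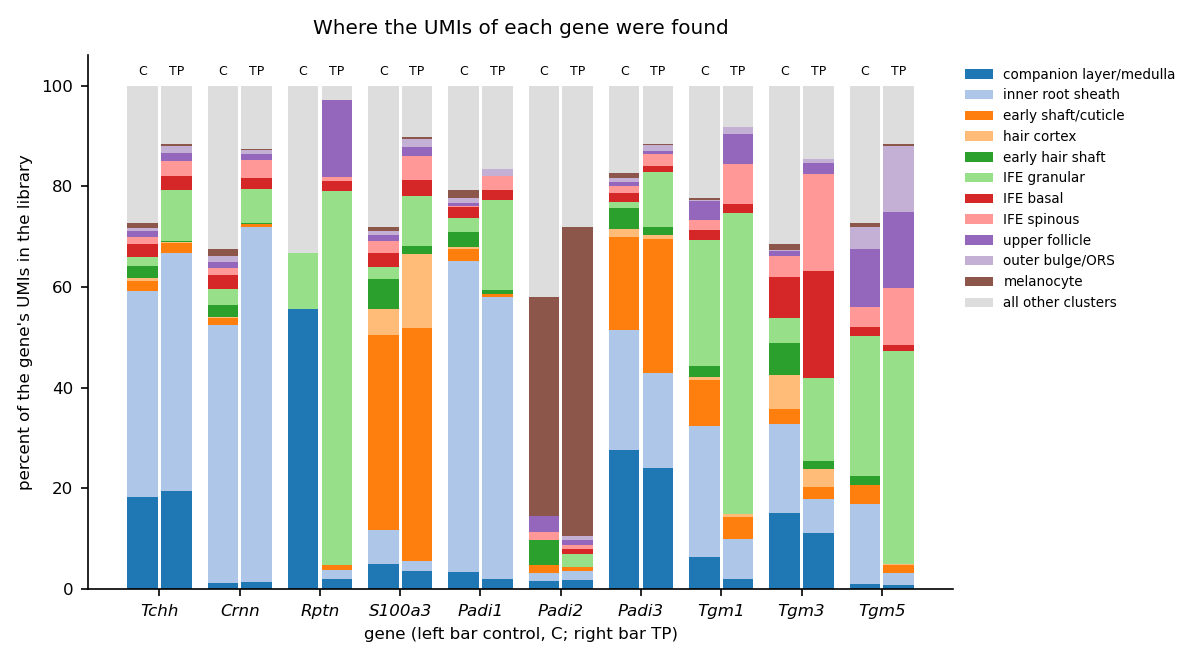
Percent of each member's UMIs that came from each class, in the control (C, left bar) and TP (right bar) library, with the remaining clusters in grey. Granular IFE-like cells hold 25.1% of Tgm1 UMIs in control and 59.7% in TP, and inner root sheath-like cells hold 51.3% and 70.5% of Crnn UMIs.

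Counted within the leading class of each member, 4 of the 9 members with enough UMIs were at least 2-fold higher in TP (Tgm1, Crnn, Padi2 and S100a3) and none was 2-fold lower. The TP level takes part in the choice of the leading class, and in control alone S100a3, Padi2 (on few UMIs) and Tgm3 were highest in other classes. Nothing is therefore read from this count. In companion layer and medulla-like cells, the leading class of Tchh and Padi3, 3.88% of genes differed 2-fold or more and neither member did, although Tchh did without the highest 10% of cells of each library. The classes differ in this background, from 3.88% to 20.6% of genes.

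Members were found together in single cells of the hair. In thinned companion layer and medulla-like cells of the control library, 31.6% of cells with a Tchh UMI had a Padi3 UMI, against 15.3% of cells without Tchh, and in TP the shares were 34.2% and 18.1%. Tgm3 was found in 11.8% of control cells of this class with Tchh and in 4.04% of those without. In inner root sheath-like cells Padi1 was found in 2.36% of control cells with Tchh and 0.222% without, and in 3.43% and 0.242% of the TP cells. Crnn was found in 3.59% and 1.83% of these cells in control and in 6.85% and 0.484% in TP. The shares describe cells of 1 library each, and background Tchh UMIs can place cells that do not express the gene in the group with Tchh.

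The genes most like each member were taken over 57 profiles, 1 per cluster and library with at least 50 cells (the 33 control cells of 1 cluster were left out), by Pearson correlation of log2(CPM + 1). For Tchh they were Ggt1, Krt25 and Krt27 (r = 0.80 each), for Padi1 Ggt1, Tchh and Bco1 (0.78 each), and for Crnn Kcnk16 (0.83), Nudt13 (0.81) and Krt25 (0.81). Padi3 was closest to the transglutaminase Tgm6 (0.88), then to Serinc5 (0.84) and St8sia6 (0.83). S100a3 was closest to Vsig8 (0.87), Adh6b (0.85) and the keratin-associated Krtap24-1 (0.85). Tgm1 was closest to Gsdma (0.79), Prss53 (0.77) and the epidermal dehydrogenase Sdr9c7 (0.74), Tgm3 to Lad1 (0.78), Trpv3 (0.77) and Dennd2c (0.76), and Tgm5 to Atp6v0a4 (0.70), Atp10b (0.68) and Alox12e (0.68). The profiles share 2 libraries and their depths, so the values are descriptions.

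Other genes of the same processes were read over all kept cells, where 10.4% of all genes were 2-fold lower and 8.36% higher, and again with control cluster shares. Padi4 was 2-fold lower, at 21.9 CPM in control and 5.41 CPM in TP (ratio 0.247, or 0.573 with control cluster shares), and in hair cortex-like cells, its highest class, it was at 305 and 264 CPM. Padi6 gave 3 and 5 UMIs and was not counted. Of the 5 other transglutaminases, 2 were 2-fold higher, Tgm2 (2.75), highest in endothelial-like cells, and F13a1 (6.49), the blood factor XIII subunit, highest in myeloid-like cells. With control cluster shares Tgm2 had a ratio of 1.13 and F13a1 of 2.01. None was 2-fold lower over all kept cells, with a median log2 ratio of 0.34 against -0.23 over all genes. Tgm6 was at 16.9 and 8.71 CPM overall (0.516) and at 332 and 335 CPM in companion layer and medulla-like cells.

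The relatives of Tchh differed in direction. Among the 4 other S100 fused-type genes, Flg (15.9), Hrnr (6.92) and Flg2 (3.58) were 2-fold higher in TP and Tchhl1 (0.363) was 2-fold lower, with a median log2 ratio of 2.31. Tchhl1 was highest in companion layer and medulla-like cells, at 303 and 223 CPM. Of 8 cornified envelope genes, 6 were 2-fold higher, among them Sprr1b (18.2), Lor (10.7) and Ivl (3.47), with a median log2 ratio of 3.17, while Evpl (1.50) and Ppl (1.38) stayed within 2-fold. Flg, Flg2, Lor and Ivl were also markers of the granular IFE-like cells, which were 3.15 times as large a share of the TP cells as of the control cells. With control cluster shares the ratios were 7.19 for Flg, 6.12 for Lor, 9.97 for Sprr1b, 2.09 for Ivl and 3.24 for Hrnr, while Flg2 (1.72) and Tchhl1 (0.559) were within 2-fold.

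Of the 7 inner root sheath keratins, the filament partners of trichohyalin, 5 were 2-fold lower in TP (Krt25, Krt26, Krt28, Krt71 and Krt73) and none was higher, with a median log2 ratio of -1.26. Krt25 had a ratio of 0.350 over all cells, close to the 0.355 of Tchh. The keratins too had a background that was higher in control. In fibroblast-like cells Krt25 was at 690 CPM in control and 75.3 CPM in TP, and Krt71 at 596 and 70.1 CPM. The part of this background in the keratin ratios, and in their likeness to Tchh, was not tested. With control cluster shares Krt25 (0.941), Krt28 (0.986), Krt71 (0.834) and Krt73 (1.14) were within 2-fold and Krt26 (0.488) was not. Within inner root sheath-like cells, Krt25 was at 5408 CPM in control and 8088 CPM in TP and Krt71 at 4249 and 6088 CPM. These keratins also served as markers of that class.

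Of 9 proteases and protease inhibitors of terminal differentiation, 4 were 2-fold higher in TP (Klk7 with a ratio of 5.74, Klk5 with 4.68, Cst6 with 3.49 and Casp14 with 3.41) and none was lower, with a median log2 ratio of 0.78. With control cluster shares Klk7 (2.93) and Klk5 (2.38) were 2-fold higher and Cst6 (1.81) and Casp14 (1.87) were not. Klk5 and Klk7 are proteases of corneocyte shedding, and Cst6 is the inhibitor that restrains the processing of Tgm3. Of 11 transcription factors of hair and epidermal differentiation, Foxn1 (0.442), Dlx3 (0.470), Msx2 (0.440) and Cux1 (0.369) were 2-fold lower and Klf4 (2.78) was 2-fold higher, with a median log2 ratio of -0.35. With control cluster shares these 5 were within 2-fold (Foxn1 0.720, Dlx3 1.04, Msx2 0.879, Cux1 0.804 and Klf4 1.80). Gata3, a factor of the inner root sheath, was at 632 and 724 CPM in inner root sheath-like cells.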

How the data were processed

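Droplet 3′ libraries (Chromium GEM-X 3′ v4) were made from dorsal skin of a control and a TP pool of 15 mice each. Per the labels, the reads were processed with Cell Ranger 8.0.1 against mm10, and the deposited values are raw UMI counts per gene and barcode, not normalized by the authors. The control matrix held 45709 barcodes and the TP matrix 25931. Barcodes with fewer than 200 genes, more than 8000 genes or more than 10% mitochondrial counts were removed, then 7.5% of each library as doublets by similarity to simulated doublets (3168 and 1503 barcodes). Kept cells held 105529277 control and 131122284 TP UMIs. Of the kept barcodes, 186 sequences occurred in both libraries. Cells were integrated by reciprocal PCA and clustered at resolution 1 in Seurat 5.3.0 (R 4.3.3) on 2000 variable genes, without the members and without the listed genes that are not markers. A cluster was named where a mean marker score reached 1.75, a threshold set after the scores were seen.

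UMIs were summed per class and library and divided by the class total (CPM, Poisson intervals). Ratios carry exact conditional binomial intervals and shares Clopper-Pearson intervals, all for counting error only. The log2 ratio adds 1 UMI per library. A gene was counted as higher or lower at 2-fold, among genes with at least 50 UMIs over both libraries. The leading class of a member is the class with the highest mean level among those with at least 50 cells in each library. For shares, cells were thinned to 1000 UMIs, and the 5362 control and 883 TP cells with fewer were not used. The alternatives were edgeR 4.0.16 TMM scaling, another added count, other filters, clusterings and weights.

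The members, the gene lists and the tests were chosen with earlier results of these data known. The genes named are the members, all genes of the lists where the text gives them, and the 3 genes most like each member with at least 200 UMIs. Krt31, Krt32, Krt35 and Krt82 in the highest S100a3 cells were looked at after the values were seen. Promoter windows came from RefSeq.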

Additional observations from a re-analysis of the deposited data

Results flagged for a closer look

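The TP to control ratio of 3 members was at least 2-fold lower in some cell classes and at least 2-fold higher in another, of which the ends are given here, with both counting intervals clear of 1. Tchh and Tgm3 also had intervals on both sides of 1, but without a class at least 2-fold higher. The difference between the classes was not tested, since each class has 1 library per group. Padi3 had a ratio of 0.218 in outer bulge-like cells (22.4 CPM in control and 4.88 CPM in TP) and 2.20 in granular IFE-like cells (4.67 and 10.3 CPM), or 1.33 in the latter with cells weighted equally. Its background classes had a ratio of 0.203, and at 17.2 and 3.49 CPM they lay near the outer bulge levels and, in control, above the granular level.

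Crnn had a ratio of 0.454 in cycling cells (5.66 and 2.57 CPM) and 2.39 in inner root sheath-like cells, beside 0.0903 in the background classes. The cycling cells joined 2 clusters with different shares in the libraries, and Crnn had a ratio of 0.259 in 1 of them and 1.98 in the other. S100a3 had a ratio of 0.439 in dermal sheath-like cells and 9.12 in hair cortex-like cells, beside 0.501 in the background classes. Without the highest 2% of cells of each library the ratio was 3.03 in hair cortex-like and 0.433 in dermal sheath-like cells.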

How the results depend on the processing

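Over all kept cells, 2 members were 2-fold lower and 3 higher in TP. With 0.1 added to counts per 10000, 1 member (Tchh) was lower and 0 were higher. This addition is larger than the level of Padi1, Tgm5 and Rptn in both libraries and of Tgm1 in control. These members could thus hardly reach 2-fold, and nothing is read from the loss of their calls. With control cluster shares in both libraries 0 were lower and 3 higher (Padi2, Tgm5 and Rptn). With doublets kept, or with no mitochondrial limit, 3 were lower (Crnn was added). The other alternatives kept 2 lower and 3 higher. Within the leading classes, 4 members were called, against 2 at a resolution of 0.5 (S100a3 and Padi2), 3 at a resolution of 2, with members allowed among the features or with merged libraries, and 5 with TMM scaling. Without the 10 highest cells of each library 4 were called (Tchh, Padi2, Tgm1 and Tgm5), and S100a3 in hair cortex-like cells went from 9.12 to 0.896, but 10 cells are a larger share of the TP cells. With equal shares left out, 5 were called at 2% and 2 at 10% (Tchh and Tgm1), where Padi1, Padi2, Tgm5, Crnn and Rptn gave no ratio, and S100a3 stayed above 1 in both. For the sparse members the cells left out were a larger part of the positive cells in control than in TP, so their calls are not read. No other called ratio turned in the alternatives run. S100a3 over all cells, which was not called, had a ratio of 0.946 and 1.12 with TMM scaling, which moved the median log2 ratio of all genes from -0.23 to 0.02. Over all genes, 1820 were lower and 1469 higher, against 1032 and 2004 with TMM, 140 and 290 with 0.1 added, 4594 and 2597 with no filter, and 575 and 586 with control cluster shares. The leading class kept the first part of its name for 9 or 10 of the 10 members in every clustering. At a resolution of 2 the upper follicle-like class of Tgm5 carried companion layer and medulla markers in place of sebaceous gland markers. The alternatives with shared barcodes left out, background subtracted, cells weighted equally and the highest cells left out were chosen after seeing the data. The ratio of Tchh in inner root sheath-like cells, and of Crnn there, rested in part on few deep TP cells, and counts under about 50 UMIs, as for Rptn, limit precision. No paired analysis was possible because each group has 1 library.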

Other observations

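The barcodes removed for mitochondrial counts above 10% (3465 in control and 5844 in TP) were compared in the same way. They held Tchh at 1825 CPM in control and 838 CPM in TP (ratio 0.459), against 1232 and 438 CPM in kept cells. S100a3 was at 337 and 266 CPM in them, and Tgm3 at 51.0 and 26.6 CPM. Tgm5, with 6 and 78 UMIs, was at 1.21 and 8.05 CPM (ratio 6.68, 2.93 to 18.8). In the barcodes removed as doublets Tgm3 was at 24.5 and 28.1 CPM (ratio 1.15, 1.02 to 1.29), above 1 where it was 0.800 in kept cells.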
